A study of Mus musculus with 80 samples.

Results

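Adipoq, Retn, Fabp4, Thrsp, Ucp1 and Cidea, genes used strongly by white or brown fat cells, were followed across 5 organs of mice that do or do not carry an intact gene for serum carboxylesterase. The list held 8 genes. A probe set naming 1 gene was found for 6 of them, out of 17097 genes measured, while Cidec and Plin1 were not analysed here because the gene table names no probe set for them. Each gene was represented by its probe set with the highest mean over the 80 arrays, and levels are log2 values after RMA (robust multi-array averaging), so that 1 unit is a 2-fold step within a gene. Levels of different genes cannot be set against each other on this scale.

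The knockout animals, labelled Es-1 KO and written KO here, lack the plasma esterase encoded by Ces1c, and the comparison animals are wild type (WT). Both genotypes were on a C57BL/6 background, ate standard chow and were untreated. Their ages and the construction of the KO line are not given in the sources used here. Brain, heart, kidney, liver and lung of both sexes made 20 groups of genotype, sex and organ with 4 arrays each. The arrays came from 23 animals, of which 16 gave brain, heart, kidney and liver, 9 gave all 5 organs and 7 gave lung only. Nothing was recorded in the labels about fat left on an organ at dissection.

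White fat cells store triglyceride in 1 large droplet and secrete hormones such as adiponectin, while brown fat cells hold many small droplets and burn fatty acids for heat through the mitochondrial uncoupling protein UCP1. Perirenal fat wraps the kidney and its hilum, and contains brown as well as white fat cells in mice. Fat of the thorax lies around the heart, the great vessels and the hilum of the lung, and includes mediastinal and periaortic brown fat. A homogenised organ reads such fat together with its own cells, and in such bulk RNA a change in the number of fat cells and a change in RNA per fat cell cannot be told apart.

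Adipoq encodes adiponectin, a hormone made almost only by fat cells, and Retn encodes resistin, which in the mouse is also secreted by fat cells. Fabp4 encodes a fatty acid carrier of fat cells that capillary endothelium and macrophages make too. Thrsp encodes Spot 14, a nuclear protein that rises with fatty acid synthesis in liver and fat. Ucp1 encodes the uncoupling protein of brown fat, and Cidea a lipid droplet protein that is abundant in brown fat. In the GRCm38.p6 annotation Adipoq lies on chromosome 16 (23146536 to 23157968), Retn on chromosome 8 (3655770 to 3659818) and Ucp1 also on chromosome 8 (83290348 to 83298456). Fabp4 lies on chromosome 3 (10204342 to 10208616) and Thrsp on chromosome 7 (97412933 to 97417550).

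The promoters of 3 of these genes are shown because they stand for the contrasts described next: Adipoq for white fat, Ucp1 for brown fat, and Thrsp as the gene whose highest organ was the liver. They are RefSeq sequences of GRCm38.p6, 300 bases each from upstream of the gene's start into its first bases, printed 5′ to 3′ on the gene's strand at chr16:23146286-23146585 (plus), chr8:83290098-83290397 (plus) and chr7:97417501-97417800 (minus). Capitals mark matches on either strand to the CCAAT box, to AGGTCA, a core site of nuclear receptors, and to TATANA, letters of the TATA box.
Adipoq: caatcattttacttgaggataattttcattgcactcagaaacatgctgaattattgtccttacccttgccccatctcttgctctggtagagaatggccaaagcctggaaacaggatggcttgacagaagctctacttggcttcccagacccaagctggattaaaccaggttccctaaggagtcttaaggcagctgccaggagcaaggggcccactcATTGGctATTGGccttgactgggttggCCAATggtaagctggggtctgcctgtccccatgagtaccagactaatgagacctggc
Ucp1: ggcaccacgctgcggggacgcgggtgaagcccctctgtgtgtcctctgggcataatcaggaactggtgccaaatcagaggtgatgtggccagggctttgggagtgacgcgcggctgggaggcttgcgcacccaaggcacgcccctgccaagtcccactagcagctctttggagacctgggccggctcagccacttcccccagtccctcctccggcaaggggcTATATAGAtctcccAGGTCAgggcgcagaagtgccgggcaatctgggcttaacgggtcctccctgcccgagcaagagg
Thrsp: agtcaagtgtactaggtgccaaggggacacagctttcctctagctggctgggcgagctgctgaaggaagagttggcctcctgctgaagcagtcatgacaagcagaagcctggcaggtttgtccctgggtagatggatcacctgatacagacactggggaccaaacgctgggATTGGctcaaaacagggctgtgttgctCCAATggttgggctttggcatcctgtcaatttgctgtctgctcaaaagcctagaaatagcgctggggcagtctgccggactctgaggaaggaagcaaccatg
The Adipoq window held 3 CCAAT matches, whose first bases lay at -34, -27 and -7 from the start, and the Thrsp window held 2, at -79 and -52. The Ucp1 window held no CCAAT, but 1 AGGTCA at -14 and 3 overlapping TATANA matches at -28 on both strands and at -26. Among 32851 promoters of this length, 37.4% held CCAAT, 16.3% AGGTCA and 24.7% TATANA on either strand, so each motif occurs in many promoters and a match is a description only. The RefSeq table also held Retn, whose window had none of these motifs.

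The labels were checked first. Ces1c in the liver averaged 12.42 over the 8 WT livers, and 7 of the 8 KO livers lay between 9.70 and 10.17, but the library labelled KO male 952 read 12.04. KO minus WT was -2.30 (SE 0.26, adjusted p = 0.0032 by limma, with p-values adjusted over all genes after Benjamini-Hochberg). In all 80 arrays the marker list of the labelled organ was the highest of the 5 organ lists, and the 1 array with conflicting labels, the heart of KO female 994 (lung in 1 field), was placed by its title. All libraries were kept, and what changed without those of KO male 952 is given where it matters.

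All 6 genes were brightest in organs that carry fat depots or, for Thrsp, in the liver, and most of them were close to the array's lower end in brain. Adipoq averaged 9.50 ± 0.80 in kidney, 8.75 ± 1.45 in heart, 8.12 ± 1.56 in lung, 4.33 ± 0.67 in liver and 3.11 ± 0.23 in brain (SD, n = 16 arrays in each organ). Retn had the same order, at 7.80 ± 0.83 in kidney, 6.43 ± 1.16 in heart, 6.21 ± 1.01 in lung, 4.75 ± 0.29 in liver and 4.13 ± 0.23 in brain. Array medians lay between 3.93 and 4.21, so that values near 4 or lower are close to background. Both secreted hormones thus read at or little above background in brain and liver and well above it, on average, in the other organs.

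Fabp4 was highest in heart, at 12.49 ± 0.12, ahead of kidney at 11.49 ± 0.49, lung at 10.02 ± 1.09, liver at 8.01 ± 0.70 and brain at 3.33 ± 0.38. Cidea was also highest in heart, at 9.33 ± 0.42, then 8.03 ± 0.89 in kidney, 5.41 ± 0.21 in brain, 5.12 ± 1.29 in lung and 3.49 ± 0.28 in liver. Ucp1 averaged 8.09 ± 1.23 in kidney, 6.63 ± 2.06 in heart, 4.44 ± 1.49 in lung, 3.89 ± 0.30 in liver and 3.64 ± 0.28 in brain. Thrsp stood apart from the other 5, at 11.82 ± 0.55 in liver, 9.30 ± 0.47 in heart, 9.04 ± 1.01 in kidney, 8.23 ± 0.15 in brain and 7.11 ± 1.43 in lung. Every brain lay above 7.9 for Thrsp, with a range of 7.95 to 8.57.

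**Figure D1:**
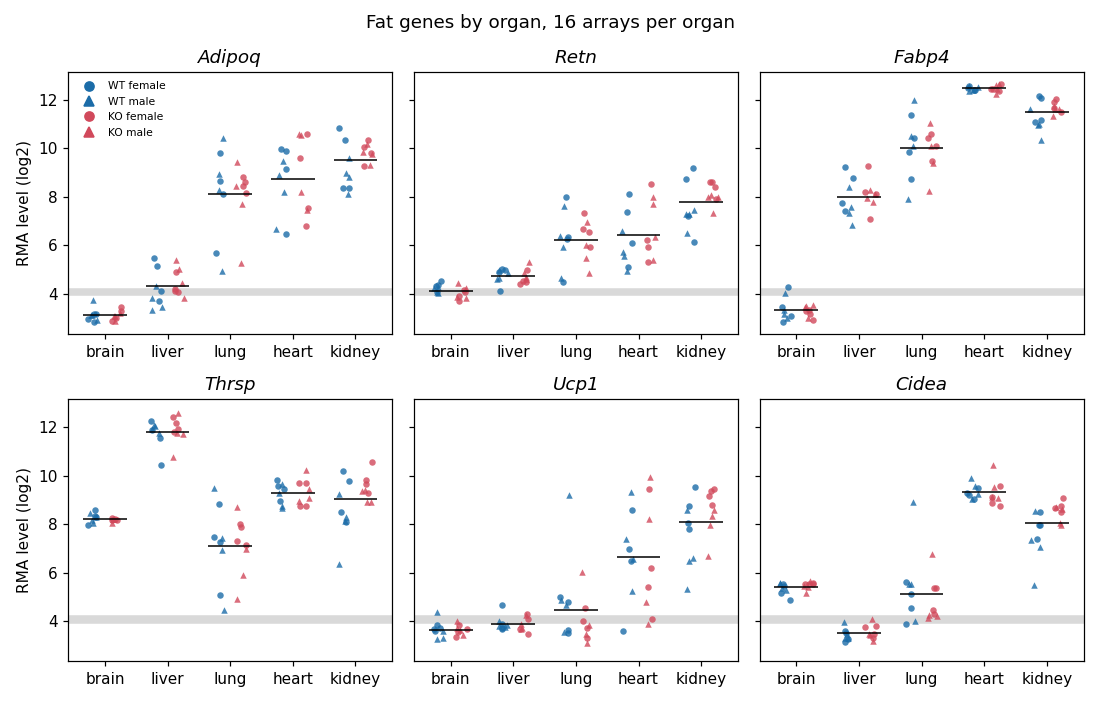
RMA level (log2) of each gene by organ, 1 point per array with WT to the left and KO to the right, circles for females and triangles for males. Black lines are the means of 16 arrays and the grey band is the range of array medians, 3.93 to 4.21; lung, heart and kidney points spread widely for Adipoq, Retn and Ucp1, while Fabp4 in heart stays within 12.24 to 12.67.

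Organs were compared in pairs with limma over all 80 arrays, and a gene was called at a Benjamini-Hochberg adjusted p under 0.05 with a difference of at least 1 log2 unit. Each gene had 1 residual variance shared by all organs in this fit, so its standard errors do not follow the spread of the organs compared. Between kidney and lung all 6 genes were called higher in kidney, where 26.6% of all genes were called in either direction and 12.3% were called higher in kidney. The kidney minus lung differences ran from 1.39 for Adipoq (SE 0.39, adjusted p = 0.00107) to 3.64 for Ucp1 (SE 0.44, adjusted p = 2.42e-11), and with WT arrays alone the Adipoq call was lost (1.07, adjusted p = 0.112). Between kidney and liver 6 of 6 were called (all genes 20.4%), 5 higher in kidney (all genes 13.1%) and Thrsp higher in liver, at -2.78 (all genes 7.37%). Between heart and liver 6 of 6 were likewise called (all genes 27.2%), 5 higher in heart (all genes 15.5%) and Thrsp higher in liver, at -2.52 (all genes 11.7%).

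Between heart and kidney the genes differed in both directions. Cidea was higher in heart by 1.29 (SE 0.24), whereas Ucp1 at -1.46 (SE 0.44) and Retn at -1.37 (SE 0.28) were higher in kidney, which made 3 of 6 called beside 23% of all genes (10.5% higher in heart and 12.5% higher in kidney). Fabp4 missed the fold limit at 0.996 (SE 0.23, adjusted p = 0.000116). Adipoq (-0.75, adjusted p = 0.0811) and Thrsp (0.26, adjusted p = 0.442) were not called. For Ucp1 the call was lost with WT arrays alone, at -0.87 (adjusted p = 0.225). Heart minus lung was called for 4 of 6 genes (all genes 25.7%), all 4 higher in heart (all genes 10.9%), and the neighbours Adipoq (0.64, adjusted p = 0.123) and Retn (0.22, adjusted p = 0.466) were not called.

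Brain was called lower than heart for 6 of 6 genes (all genes 32.7%, 16.5% lower in brain), and lower than kidney for 5 of 6 (all genes 33.9%, 17.8% lower in brain), with Thrsp at -0.81 under the fold limit. With WT arrays alone, brain minus heart for Thrsp (-0.999, adjusted p = 0.0587) and brain minus liver for Adipoq (-1.05, adjusted p = 0.0997) were no longer called. Brain against liver gave 4 of 6 calls (all genes 37.3%), Cidea higher in brain by 1.92 (all genes 20.6%) and Adipoq, Fabp4 and Thrsp lower (all genes 16.8%). Brain against lung also gave 4 of 6 (all genes 34.2%), Thrsp higher in brain by 1.12 (all genes 15.7%) and Adipoq, Retn and Fabp4 lower (all genes 18.4%). The Thrsp difference fell under the fold limit without the lung of KO male 1870, WT female 1951 or WT male 1960, and was lowest, at 0.902, without the last. Liver against lung gave 5 of 6 (all genes 31.9%), Thrsp higher in liver by 4.71 (all genes 12.3%) and Adipoq, Retn, Fabp4 and Cidea lower (all genes 19.6%). Ucp1 did not differ by the call rule among brain, liver and lung, with adjusted p between 0.0966 and 0.594. Its residual SD was 0.30 in brain and 0.33 in liver but 2.27 in heart. The shared variance therefore makes the standard error of Ucp1 too wide for brain against liver and too narrow for pairs with heart. Whether the submitters normalised all organs together is not stated, and when each array was centred on its median the liver against lung calls fell to 3. After a further quantile normalisation the Retn call of liver against lung was lost too (-0.988, under the fold limit).

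In kidney, where fat genes were brightest for Adipoq, Retn and Ucp1, the animals covered several-fold ranges. Adipoq ran from 8.12 in WT male 903 through a median of 9.68 to 10.85 in WT female 1265, a 6.64-fold span. Ucp1 ran from 5.31 in WT male 903 through 8.46 to 9.52 in WT female 936, an 18.5-fold span. Thrsp ran from 6.35 in the same WT male 903 through 9.27 to 10.56 in KO female 985, also an 18.5-fold span. The kidney of WT male 903 was the lowest of 16 for Adipoq, Fabp4 (10.34), Thrsp, Ucp1 and Cidea (5.48), and second lowest for Retn (6.499). WT female 936 had the highest kidney Ucp1, at 9.52, with the lowest Retn, at 6.15, and the third lowest Adipoq, at 8.38.

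Kidneys of KO female 994 and WT female 1265 stood apart in the adrenal cortex list (8 genes such as Star and Cyp11a1, which act in steroid synthesis), at a mean level of 7.46 and 7.84, while the other 14 kidneys lay between 3.73 and 4.21. Both lay high for Adipoq, at 10.33 and 10.85, but WT female 1264, among the other 14, read 10.36. The adrenal gland sits in the perirenal fat. The part of this tissue in the fat gene levels was not tested.

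In heart, Adipoq, Retn and Ucp1 covered wider ranges than in kidney, while Cidea and Fabp4 covered narrower ones. Ucp1 ran from 3.59 in WT female 876 through a median of 6.51 to 9.95 in KO male 964, an 82.2-fold span. Adipoq ran from 6.45 through 9.03 to 10.61, a 17.9-fold span, and Retn from 4.96 through 6.17 to 8.51. Cidea, in contrast, lay between 8.77 and 10.44 in every heart, including those with Ucp1 at background. Fabp4 lay between 12.24 and 12.67, a 1.35-fold span.

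Ucp1 and Adipoq could part in the same heart. KO female 994 had an Adipoq of 10.60 with a Ucp1 of 4.07, whereas KO male 964 had 10.57 with 9.95. WT male 903 reached a Ucp1 of 9.33 and KO female 781 one of 9.45 at an Adipoq of 9.47 and 9.59. WT females 1264 and 1265, at Adipoq levels of 9.88 and 9.97, read 6.96 and 6.47 for Ucp1. Hearts of like Adipoq level therefore differed by several log2 units in Ucp1.

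Several hearts carried markers of a neighbouring organ. The lung epithelium list averaged 7.18 in the heart of KO male 964 and 6.73 in that of KO female 781, the hearts with the highest Ucp1, against 4.60 to 4.84 in the other 14. The hepatocyte list reached 10.20 in WT male 903, 8.18 in KO male 962 and 8.18 in KO female 982, with Ucp1 at 9.33, 3.89 and 6.18. The skeletal muscle list was 9.63 in KO male 1259, whose Ucp1 was 8.21, and at most 5.86 elsewhere. WT female 936 had a Ucp1 of 8.58 with all 3 lists low, the hepatocyte list being the lowest of all hearts. The endothelium list, which bears on Fabp4, lay between 8.58 and 9.04 in all hearts. The part of the attached tissues in Ucp1 was not tested.

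**Figure D2:**
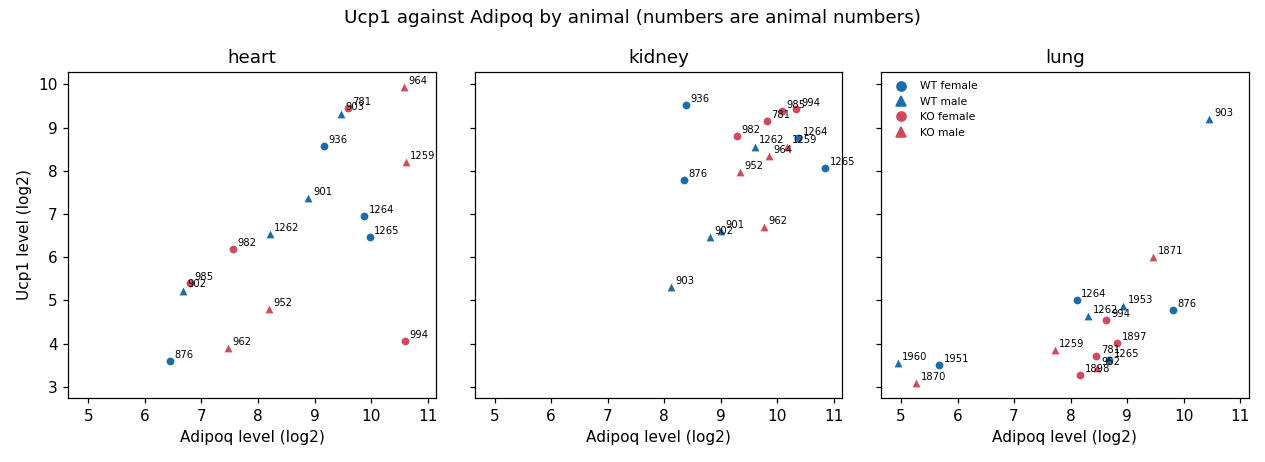
Ucp1 against Adipoq level (log2) for each heart, kidney and lung, with the animal number beside each point, colours for genotype and shapes for sex. The heart of KO female 994 lies at 10.60 for Adipoq and 4.07 for Ucp1, and the lung of WT male 903 lies apart at 10.45 and 9.20.

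In lung, Adipoq fell into separate clusters. The lungs of WT male 1960, KO male 1870 and WT female 1951 read 4.94, 5.27 and 5.68, and the other 13 lay between 7.72 and 10.45, with a gap of 2.04. These same 3 lungs were the lowest for Fabp4 (7.91, 8.26 and 8.73), Thrsp (4.45, 4.91 and 5.07) and Retn (4.65, 4.86 and 4.48), and all 3 animals gave lung only. The other 4 animals that gave lung only, KO females 1897 and 1898, KO male 1871 and WT male 1953, read 8.17 to 9.45 for Adipoq. Low and high lungs thus occurred in both genotypes.

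Ucp1 was near background in most lungs and high in 1. It had a median of 3.93 and was 9.20 in WT male 903, followed by 6.01 in KO male 1871. Cidea was above the array medians in most lungs, with a median of 4.81, and the same lungs led at 8.93 and 6.76. The lung of WT male 903 was also the highest for Adipoq (10.45), Fabp4 (12.00) and Thrsp (9.50), and 1 animal thereby held the lowest kidney and the highest lung for these 5 genes. Its skeletal muscle list was 8.53 and its ventricular myocardium list 9.54. WT female 1265 and KO female 781 also had high skeletal muscle lists, at 7.90 and 7.49, with Ucp1 at only 3.62 and 3.70, and KO female 781 had the highest ventricular myocardium list, 10.03. The part of attached muscle, heart or fat in these values was not tested.

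In liver, Thrsp was bright in every animal, from 10.45 in WT female 1265 through a median of 11.91 to 12.59 in the library labelled KO male 952. Fabp4 ranged from 6.85 through 8.03 to 9.27, and Adipoq from 3.32 through 4.17 to 5.48, while Ucp1 and Cidea stayed between 3.11 and 4.64. In brain, Adipoq, Ucp1 and Fabp4 stayed between 2.82 and 4.35, while Cidea (4.85 to 5.65) and Thrsp lay clearly above the array medians. Cidea and Thrsp were therefore read in brains without Adipoq above background.

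The spread within a genotype and sex was set beside that of all genes, as a description. The residual SD of Ucp1 in heart was 2.27, and 0.076% of 17097 genes had one as large, beside a median over all genes of 0.19. Adipoq followed at 1.58 (0.24% of genes) and Retn at 1.19 (0.474%), whereas Fabp4 in heart was at 0.13, less than most genes (82.9%). In lung the residual SD ran from 1.08 for Retn (0.374%) to 1.71 for Adipoq (0.0819%), and in kidney from 0.42 for Fabp4 (2.76%) to 0.90 for Ucp1 (0.187%). In heart Cidea was at 0.43 (3.91%) and Thrsp at 0.50 (2.39%). These fat genes thus ranked high in spread in these 3 organs, apart from Fabp4 in heart. They were chosen with earlier results of these data known, so the rank is a description only. Without the lung of WT male 903 the residual SD of Ucp1 in lung was 0.89 in place of 1.48. High ranks were not confined to these organs. In liver Fabp4 had the largest of the 6, 0.70 (1.67%), followed by Adipoq at 0.62 (3.1%) and Thrsp at 0.57 (4.46%). Retn, Ucp1 and Cidea in liver lay at 28.2% to 34.5%. In brain Fabp4 was at 0.42 (2.13%) and the other genes lay at 7% to 48.9%. Thrsp in brain, at 0.16 (48.9%), lay at the median of all genes.

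**Figure D3:**
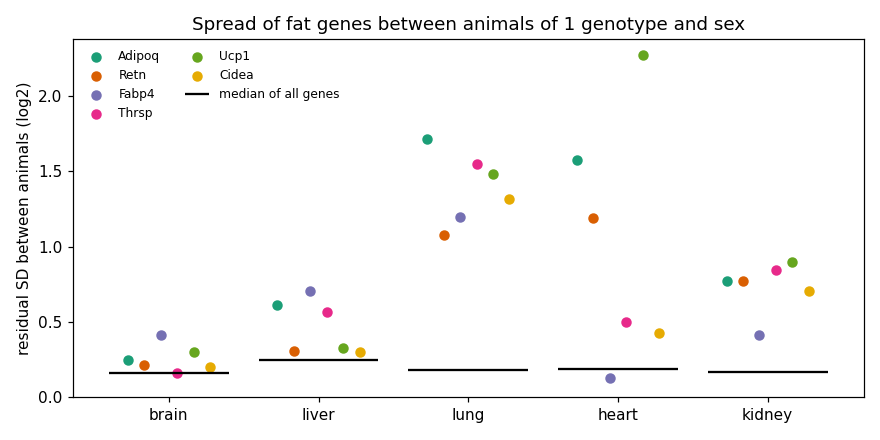
Residual SD (log2) between animals of the same genotype and sex for each gene and organ, with black lines at the median over all 17097 genes. Ucp1 in heart is highest at 2.27, and Fabp4 in heart, at 0.13, lies below the line.

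The 5 other genes were correlated with Adipoq over the animals of heart, kidney and lung, 15 relations in all, with 100000 permutations and Benjamini-Hochberg adjustment over the family. In lung only the larger cluster of 13 was used. In kidney Fabp4 (r = 0.92, rho = 0.93), Retn (r = 0.92, rho = 0.94) and Thrsp (r = 0.84, rho = 0.84) followed Adipoq (each with a permutation p of 1e-05 and adjusted p = 3.75e-05), as did Cidea (r = 0.71, rho = 0.69, permutation adjusted p = 0.00188). Ucp1 did not pass in kidney (r = 0.48, rho = 0.44, permutation adjusted p = 0.063), and r fell to 0.26 without the kidneys of WT male 903 and WT female 876, the farthest from the median.

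In heart Retn (r = 0.87, rho = 0.89) and Thrsp (r = 0.86, rho = 0.78) followed Adipoq (permutation adjusted p of r = 5e-05 each). Ucp1 (r = 0.60, rho = 0.58, permutation adjusted p = 0.0187) and Cidea (r = 0.53, rho = 0.52, permutation adjusted p = 0.036) passed by r over 16 hearts, although the rho of Cidea did not (permutation adjusted p = 0.0518). Without WT female 876 and WT male 902, the hearts farthest from the median, r was 0.49 (permutation p = 0.077) and 0.48 (permutation p = 0.0808), so neither passed over the other 14 hearts. Fabp4 in heart showed no relation (r = 0.06, rho = -0.08, permutation adjusted p = 0.82).

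In the 13 lungs Fabp4 had the highest r (0.96, rho = 0.91, permutation adjusted p = 3.75e-05), then Thrsp (0.91, rho = 0.70, permutation adjusted p = 0.000129) and Cidea (0.85, rho = 0.78, permutation adjusted p = 0.00103). Ucp1 had an r of 0.78 (rho = 0.51, permutation adjusted p = 0.00439 for r and 0.0887 for rho). Retn had an r of 0.77 (rho = 0.62, permutation adjusted p = 0.00327 for r and 0.0383 for rho). The r of both genes rested on WT male 903 and WT female 876. Without these lungs it was 0.55 for Ucp1 (permutation p = 0.0776) and 0.51 for Retn (permutation p = 0.111). Fabp4 therefore followed Adipoq closely in kidney and lung, but not in heart, where it is bright and nearly constant.

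An animal high in fat genes in one organ was not shown to be high in another. Each gene was compared between heart and kidney (16 animals), heart and lung (9) and kidney and lung (9), 18 relations in all, and none passed after adjustment. For Adipoq r was 0.44 between heart and kidney (rho = 0.59, permutation adjusted p = 0.193 for r and 0.316 for rho). It was -0.42 between heart and lung (rho = -0.40, exact permutation adjusted p = 0.445 for r and 0.625 for rho) and -0.80 between kidney and lung (rho = -0.43, exact permutation adjusted p = 0.154 for r and 0.625 for rho). The last value rested on WT male 903 and WT female 876, both low in kidney and high in lung, and became 0.10 without them.

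KO and WT were compared within each organ by limma on group means of genotype and sex, and the question is whether loss of the esterase goes with a difference in fat genes. In kidney the means of all 6 genes were higher in KO animals, and none passed the adjusted threshold. Cidea lay between 5.48 and 8.52 with a median of 7.68 in WT kidneys and between 7.95 and 9.08 with a median of 8.63 in KO kidneys. Ucp1 lay between 5.31 and 9.52 (median 7.92) in WT and between 6.69 and 9.43 (median 8.68) in KO. Adipoq lay between 8.12 and 10.85 (median 8.90) in WT and between 9.28 and 10.33 (median 9.82) in KO. The genotypes overlapped for every gene, and the WT kidneys were the more spread, with an SD of 0.98 against 0.37 for Cidea.

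The kidney difference, KO minus WT, was 1.01 for Cidea (SE 0.30, unadjusted p = 0.00389, limma), 0.92 for Thrsp (SE 0.36, unadjusted p = 0.0208, limma) and 0.91 for Ucp1 (SE 0.38, unadjusted p = 0.0296, limma). Fabp4 was at 0.39 (SE 0.18), Retn at 0.65 (SE 0.33) and Adipoq at 0.64 (SE 0.33). After Benjamini-Hochberg adjustment over 17097 genes every p was 1, and 0 of 6 were called, beside 0% of all genes. Before adjustment 4 of 6 lay under 0.05, beside 3.36% of all genes. Of these, Cidea, Thrsp and Fabp4 followed Adipoq over the same kidneys, so the 4 are not all separate observations. The members were also chosen with earlier results of these data known. Under 29 alternatives each difference stayed positive and none was called, with the lowest adjusted p at 0.331, for Cidea. Without WT male 903 the differences were smaller, from 0.28 for Fabp4 to 0.74 for Cidea.

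**Figure D4:**
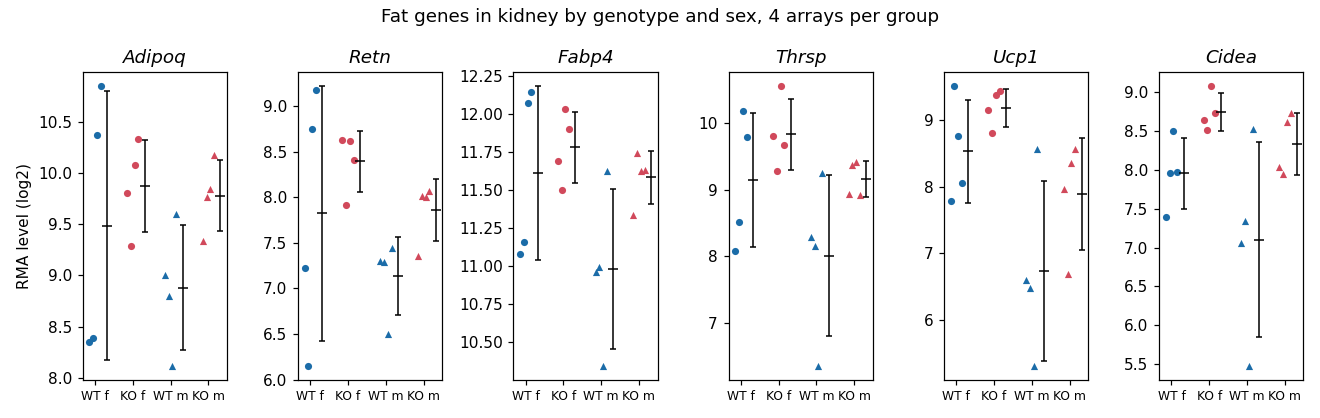
Kidney levels (log2) of the 6 genes by genotype and sex, 4 arrays per group, with the mean and SD as black bars; f is female and m is male. Each panel has its own scale that does not start at 0, and the WT groups hold the lowest values, such as 5.48 for Cidea and 5.31 for Ucp1 in WT male 903.

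The animals carry numbers of 3 or 4 digits, and the genotypes were also set side by side within each kind, as a description chosen after the values were seen. Among animals with 3 digits the 7 KO kidneys lay above the 5 WT kidneys without overlap for 4 of the 6 genes, as they did for 0.292% of all genes. Adipoq was 8.12 to 9.0 in those WT and 9.28 to 10.33 in those KO kidneys, Thrsp 6.35 to 8.52 and 8.93 to 10.56, Retn 6.15 to 7.31 and 7.35 to 8.63, and Fabp4 10.34 to 11.16 and 11.34 to 12.04. Cidea and Ucp1 overlapped. Retn, Fabp4 and Thrsp followed Adipoq over all kidneys, so the 4 genes are not separate observations. Males made up a larger share of these WT kidneys than of these KO kidneys. The lowest of these KO kidneys for Thrsp, Retn and Fabp4 was that labelled KO male 952, whose liver Ces1c was near the WT level. Among animals with 4 digits, the 3 WT kidneys averaged 10.27 for Adipoq and the only KO kidney read 10.18, and KO minus WT was -0.39 for Retn, -0.31 for Fabp4 and -0.82 for Thrsp, but 0.10 for Ucp1 and 0.40 for Cidea. With a block for the number range the differences rose to 1.25 for Cidea (adjusted p = 0.35) and 0.98 for Adipoq (adjusted p = 0.381), still uncalled. What the animal number stands for is not given in the sources used here.

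In heart and lung no gene was called for genotype, beside 0.00585% of all genes in each. Heart differences, KO minus WT, ran from -0.27 for Ucp1 (SE 0.98) to 0.49 for Retn (SE 0.52), and lung differences from -0.91 for Ucp1 (SE 0.66) to 0.01 for Retn (SE 0.48), each with an adjusted p of 0.977 or more (limma). WT hearts spanned 3.59 to 9.33 for Ucp1 and KO hearts 3.89 to 9.95. The heart value of Ucp1 was -1.63 (SE 0.88) without the 6 hearts that carried markers of another organ, and 0.05 without KO male 952, still uncalled. The lung value of Ucp1 was -0.37 (SE 0.45) without the 3 lungs high for skeletal muscle markers. With these standard errors a Ucp1 difference of about 1 log2 unit was not detectable in either organ.

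In liver 0 of 6 genes were called for genotype beside 0.00585% of all genes, with Thrsp at 0.14 (SE 0.25). In brain 0 of 6 were called beside 0% of all genes, and 1 of 6 lay under 0.05 before adjustment beside 5.97% of all genes. Retn at -0.22 (SE 0.10, unadjusted p = 0.0432, limma, adjusted p = 0.812) was that gene. The test of whether the KO effect differed between organs called none of the 6 beside 0.0292% of all genes, with Cidea the nearest at an unadjusted p of 0.04 (limma, adjusted p = 1). The KO effect did not differ by the call rule between the sexes in any organ, where 0% of all genes were called.

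Males and females were compared in the same fits. Ucp1 was lower in male than in female kidneys, by a log2 difference of -1.55 (SE 0.38, adjusted p = 0.00748 by limma). Female kidneys lay between 7.79 and 9.52 with a median of 8.98, and male kidneys between 5.31 and 8.56 with a median of 7.33. The ranges overlapped, and the male mean was lower in both genotypes, at 6.73 against 8.53 in WT and 7.89 against 9.19 in KO. The other 5 genes were not called, at -0.90 for Thrsp (SE 0.36), -0.63 for Cidea (SE 0.30), -0.61 for Retn (SE 0.33), -0.42 for Fabp4 (SE 0.18) and -0.35 for Adipoq (SE 0.33). The count of 1 of 6 stands beside 21.6% of all genes called in kidney, and 11.9% called lower in males, so the share of members called is near the background. The count was 4 without WT male 1262 and 2 without WT female 876 or WT female 936.

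The Ucp1 call was lost in a fit of all 80 arrays with the animal as a block (-1.55, SE 0.62, adjusted p = 0.0787), and in the same fit without the block (adjusted p = 0.0794), where 1 residual variance is shared by all organs. It was kept without the 2 kidneys high for adrenal cortex markers, both from females (-1.59, SE 0.43, adjusted p = 0.0171). Some markers of other cells differed by sex too. Of the endothelium list 9 of 10 genes were called lower in male kidneys (median -0.46), and its mean level was 6.79 to 7.29 in males and 7.29 to 7.60 in females. Of the macrophage list 3 of 10 and of the mesothelium list 2 of 7 were called, all lower in males. Among all genes 21.6% were called in kidney and 11.9% were called lower in males, so these last counts say little about those cells. The kidney tubule list lay at 11.58 to 11.69 in males and 11.48 to 11.69 in females. The part of these cells in the Ucp1 difference was not tested.

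In the other organs no member was called for sex. The background was 0.0994% of all genes in brain, 0.269% in heart, 4.96% in liver and 0.0526% in lung. Ucp1 was at 0.58 (SE 0.98) in heart and 0.78 (SE 0.66) in lung, male minus female, with the sign opposite to kidney, and neither was called. Whether the sex difference of Ucp1 differed between organs was not tested.

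Other genes of fat were taken from 3 lists, of which 20 of 25 white fat genes, 19 of 24 brown fat genes and 14 of 15 fatty acid synthesis genes were measured. For KO against WT none was called in any list in any organ. In kidney the KO minus WT median was 0.08 for white fat genes, 0.05 for brown fat genes and 0.17 for fatty acid synthesis genes, beside 0.02 for all genes. The values of Cox8b, a cytochrome oxidase subunit of muscle and brown fat (0.55, SE 0.23), and Dio2, the deiodinase that activates thyroid hormone (0.32, SE 0.10), are examples that did not pass adjustment. Lep, the leptin gene of white fat, stayed between 2.81 and 3.94 in heart, kidney and lung, at background even where Adipoq was bright.

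For male against female kidneys, 9 of 19 brown fat genes were called, 7 lower and 2 higher in males. Lower in males were Cox8b (-0.86, SE 0.23, adjusted p = 0.0121, limma), the brown fat regulator Prdm16 (-0.60, SE 0.12) and Dio2 (-0.40, SE 0.10), while Pank1, which makes coenzyme A, was higher (1.38, SE 0.10). Of white fat genes 7 of 20 were called, 5 lower and 2 higher in males. Cebpd (-1.63, SE 0.18) and the gluconeogenic Pck1 (-1.35, SE 0.10), which the kidney tubule also uses, were lower, and the fatty acid transporter Cd36 (1.41, SE 0.07) was higher. Of fatty acid synthesis genes 7 of 14 were called, 3 lower, with the elongase Elovl6 at -1.74 (SE 0.10), and 4 higher, with malic enzyme Me1 at 0.85 (SE 0.07). Genes of 1 list thus moved in both directions, and the share called in all genes was 21.6%.

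Genes whose level was most like that of Adipoq or Ucp1 were listed by Pearson r over the 16 arrays of an organ, as a description. Car3, a carbonic anhydrase abundant in fat cells and in slow muscle, came first for Adipoq in heart (r = 0.97) and kidney (r = 0.96). It was followed in heart by Acp5, Cdo1, Scd1 and Tmem45b (0.90 to 0.93), and in kidney by Adig, Aoc3, Plin4 and Mrap (0.88 to 0.92). In lung, where the 3 low lungs enter the ranking and no r is given, the first were Car3, Cyp2e1, Ephx2, Bpifa1 and Sult1d1. Bpifa1, a secretory protein of the large airways, read 8.33, 10.39 and 9.80 in the lungs of WT male 1960, KO male 1870 and WT female 1951, and 11.51 to 13.14 in the other 13. Bpifa1 was listed because it followed Adipoq over these same lungs, so its low level in those 3 is no separate observation. The lung epithelium list lay between 12.23 and 12.41 in all lungs.

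For Ucp1 the first in heart were Ifi27 (r = 0.84), Gpd1, Letmd1, Slc36a2 and Gipc1 (0.78 to 0.80). In kidney they were Cox8b (r = 0.92), Sh3kbp1, Dpp4, Niban1 and Anxa2 (0.87 to 0.90), and in lung Dgat2, Ndufa6, Prkar2b, Gpd1 and Coq8a. The kidney ranking took both sexes together, and Ucp1 and Cox8b were both called lower in male kidneys. The part of sex in this likeness was not tested. The lung ranking leaned on WT male 903, where Ucp1 was 9.20 and in no other lung above 6.01. Dgat2 likewise read 9.20 in that lung and at most 7.95 in the others. The genes listed for Ucp1 and for Adipoq had no name in common within an organ. Cox8b averaged 12.68 in heart, between 12.49 and 12.86 in all hearts, and could not follow Ucp1 there, whereas it ran from 5.83 to 8.69 in kidney.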

How the data were processed

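Each array (Affymetrix GeneChip, type HT MG-430 PM) read total RNA from a frozen organ. The authors deposited RMA values on the log2 scale; RMA, Affymetrix Expression Console and Partek are named, without versions, in the submitters' processing notes. Of 45141 probe sets, 28898 named 1 gene, which gave 17097 genes, each by its brightest probe set. Thrsp had 2 probe sets and Fabp4 had 3, of which the dimmest Fabp4 probe set correlated with the one used at r = -0.48 in heart, 0.64 in kidney and 0.81 in lung.

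Samples were grouped by their titles. limma 3.58.1 in R 4.3.3 fitted the 16 arrays of an organ with group means of genotype by sex, or all 80 arrays for pairs of organs, and p-values were adjusted over all genes by Benjamini-Hochberg. Genes were called at an adjusted p under 0.05. Fits were tested on simulated data. Permutation tests used numpy 2.4.6, with ranks from scipy 1.17.1. The number of arrays limits the precision, and replicates are separate animals.

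Animal numbers in the titles pair the organs of 1 animal. After group means were removed, the median correlation was 0.096 for 132 same-animal pairs and -0.0032 for 2428 pairs of different animals. The fit with the animal as a block (correlation 0.0736) is an alternative.

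The members and gene lists were chosen with earlier results of these data known. Named were the members everywhere, Ces1c, up to 4 genes per list and the 5 genes most like Adipoq or Ucp1. The likeness lists leave out dim genes (every group mean below the array median). Lep, the Bpifa1 values, the low lungs, the split by digits of the animal number and the sets of arrays high for other organs were picked once their values had been seen. Alternatives were array weights, averaging all probe sets of a gene, median centring, a further quantile normalisation, a variance trend with intensity, the blocks, each sex or genotype alone, and each library left out in turn. The fit of all arrays without a block, and those without KO male 952, without libraries high for other organs and with lungs of animals that gave other organs, were added after the data were seen.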

Additional observations from a re-analysis of the deposited data

Results flagged for a closer look

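Among 120 groups of 4 arrays, 6 had 1 array far from the other 3 by Dixon's criterion, which chance meets in about 1 of 20 groups. In lung, KO male 1871 had a Cidea level of 6.76 where the other KO males lay between 4.13 and 4.26, and it also had the second highest Ucp1 of all lungs. In kidney, Retn was lowest among WT males in 903 at 6.499 (other WT males 7.29 to 7.44). Among KO males it was lowest in the library labelled KO male 952 at 7.35 (other KO males 8.01 to 8.07). In liver, Adipoq was highest among KO females in 994 at 4.89 (other KO females 4.08 to 4.21). Retn in liver was lowest among WT females in 936 at 4.11 (other WT females 4.91 to 5.02). In brain, Fabp4 was lowest among KO males in 952 at 2.98 (other KO males 3.46 to 3.54), all close to background.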

How the results depend on the processing

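For KO against WT the count of called members stayed at 0 in every organ under every alternative run. The kidney count for male against female, 1 of 6, was 4 with array weights (Thrsp at -1.28, Retn at -0.998 and Fabp4 at -0.60 joined Ucp1), 0 with the animal as a block over all arrays, 0 in the fit of all 80 arrays without a block, and between 1 and 4 when each library was left out, with 2 without WT female 876 or 936 and 4 without WT male 1262. The animal block moved no other count of called members by over 1.5 times, and kept Ucp1 in kidney at -1.55 (adjusted p = 0.0787). The liver against lung count, 5 of 6, was 3 when arrays were centred on their medians, which left Cidea at -0.99, Retn at -0.84 and Ucp1 at 0.0821, of the opposite sign. The cause of these changes was not tested.

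Small differences changed sign. Retn in heart, KO minus WT, was -0.17 in females alone. Ucp1 in heart was 0.0526 without all arrays of KO male 952, and ran from -0.81 to 0.20 as each library was left out. Thrsp in liver was -0.0223 with the number block, -0.25 in males alone and -0.0096 without KO male 952, and ran from -0.0449 to 0.30 as each library was left out. Retn in lung was -0.0678 with the number block, -0.32 in males alone, -0.0229 without KO male 952 and -0.64 among lungs of animals that gave other organs, and ran from -0.29 to 0.30 as each library was left out. With WT arrays alone, brain minus lung for Cidea was -0.0337 and heart minus lung for Retn -0.0203. Thrsp between heart and kidney of the same animal had r = -0.0604 for residuals from group means. Depth does not apply to arrays, and values near the array medians, such as Ucp1 in brain, liver and most lungs, limit what a difference there can show.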
